A study of Mus musculus with 4 samples.

Results

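The cells described here are Ackr4+ Grem1+ CD81+ fibroblasts (FB) of the adult mouse intestine. They were taken from single-cell RNA-seq of 4 libraries of mesenchymal stromal cells (MSC). They are not the whole of the study's CD81+ FB, because the rule below leaves out cells with Pi16. The study found that its colonic CD81+ FB broadly overlapped with the Pi16+ fibroblasts of an atlas. A cell was a member when it passed the filter on cells (at least 500 genes, at least 1000 unique molecular identifiers (UMIs) and at most 10% mitochondrial UMIs), held at least 1 UMI of at least 3 of the 5 genes Ackr4, Grem1, Cilp, Prss23 and Cpz, held no Pi16 UMI, and held UMIs of at most 1 of the 4 subepithelial genes Sox6, F3, Foxl1 and Bmp7. This rule gave 3003 members among the 32216 cells that passed the filter, out of 34983 barcodes. The members were 239 and 2031 cells in the first and second small intestinal library and 87 and 646 cells in the first and second colonic library, and sets of 4 values below follow this order. They were compared with the 28145 other cells that passed the filter and held at least 1 Col1a2 UMI (1105, 13126, 2067 and 11847 cells), a collagen gene that most stromal cells express. Only 1 member, in the second colonic library, held no Col1a2 UMI.

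All animals were untreated female C57BL6/Nrj mice of 8 to 10 weeks, with 2 experiments on 3 mice each, so that each library is 1 pool and not 1 animal. Cells came from the lamina propria of the small intestine or the colon after removal of the muscularis externa, and were sorted live for Itgb1, the pan-stromal integrin, after exclusion of CD45+ and Ter119+ blood cells, CD31+ endothelium, EpCAM+ epithelium, L1CAM+ glia and BP3+ lymphoid stroma, which leaves fibroblasts, smooth muscle cells and pericytes. The cells that passed the filter held 14112888, 44473805, 21901147 and 51583833 UMIs in all. The members held 2243719, 7156300, 793302 and 2658252 UMIs, with medians per cell of 9522, 3257, 9726 and 4015.5 UMIs, against 7866, 2715, 9292 and 3947 UMIs in the other Col1a2+ cells. The first library of each intestine therefore held fewer, deeper cells than the second, and the file headers name Cell Ranger 3.0.2 in both first libraries and 3.1.0 in both second ones.

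Fibroblasts near the crypt base support the epithelial stem cells by secreting R-spondins and WNT ligands, which sustain WNT signalling, and by secreting BMP antagonists such as gremlin 1 (Grem1), which keep the differentiation signals of bone morphogenetic proteins away from the crypt. Fibroblasts just beneath the upper epithelium secrete BMP ligands instead. Ackr4 encodes an atypical chemokine receptor that binds and removes chemokines without signalling through G proteins. CD81 is a tetraspanin of the cell surface, Cilp encodes a matrix protein first described in cartilage, Prss23 a secreted serine protease and Cpz a carboxypeptidase with a domain that resembles WNT receptors. Cells that express Pi16 are known as adventitial fibroblasts, which line vessels and tissue borders.

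The genes of the rule lie, in mm10 coordinates, at chr2:113746164-113758646 (Grem1), chr9:104084157-104126933 (Ackr4), chr9:65265180-65280605 (Cilp), chr7:89507783-89527187 (Prss23), chr5:35502218-35525698 (Cpz) and chr17:29317680-29330593 (Pi16), and Cd81 lies at chr7:143052739-143067934. Levels below are summed CPM, that is, the UMIs of a gene over all cells of a class in a library per 1000000 UMIs of that class. Summed Grem1 levels in the members were 897, 1203, 1674 and 1745 CPM, against 188, 258, 186 and 227 CPM in the other Col1a2+ cells. Ackr4 reached 301, 258, 305 and 235 CPM against 44.7, 21.2, 9.74 and 18.9 CPM. The rule used these genes, so their levels and detection in the members are given as a description only. Cpz stood lower in the colonic members, with 101, 133, 25.2 and 24.1 CPM in the members and UMIs in 46.4%, 35.7%, 13.8% and 8.36% of them. Cilp stood at 198, 272, 430 and 624 CPM.

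Cd81 was the only gene of the label that the rule did not use. Its levels in the members were 412, 375, 658 and 534 CPM, against 95.7, 48.5, 115 and 153 CPM in the other Col1a2+ cells, so every library of the members was above every library of the others. At least 1 Cd81 UMI was found in 62.8%, 62.2%, 83.9% and 78.3% of the members and in 14.3%, 6.96%, 19.98% and 24.7% of the others. With each cell thinned to 2000 UMIs, the expected shares were 45.0%, 48.6%, 62.2% and 62.5% in the members and 9.79%, 6.04%, 11.7% and 17.5% in the others (238, 1873, 82 and 567 members and 1022, 9980, 2003 and 10596 others were deep enough). Cd34, an antigen of vessel-associated and progenitor-like stroma, stood at 665, 539, 953 and 634 CPM in the members and at 512, 465, 336 and 362 CPM in the others. Pdgfra stood at 233, 243, 222 and 175 CPM against 556, 373, 442 and 303 CPM. Among the others Pdgfra was highest in the cells with at least 2 subepithelial genes, which the rule keeps out (2017, 1619, 769 and 596 CPM). The Pi16+ cells (192, 193, 171 and 161 CPM) and the remaining Col1a2+ cells (215, 278, 157 and 196 CPM) stood near the members.

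Cd81 did not set the members apart from the Pi16+ cells that the rule left out. The 2121 other Col1a2+ cells with a Pi16 UMI (114, 513, 100 and 1394 cells) had Cd81 at 488, 384, 714 and 595 CPM, in each library above the members. In the 4759 cells with at least 2 subepithelial genes (174, 932, 795 and 2858 cells) Cd81 stood at 15.0, 22.2, 37.4 and 54.4 CPM, and in the 21265 remaining Col1a2+ cells at 42.5, 32.3, 137 and 106 CPM. The absence of Pi16 alone removed 80, 259, 46 and 415 cells that held at least 3 of the 5 genes, whereas too many subepithelial genes alone removed 0, 36, 6 and 37 cells. In the second colonic library the Pi16 condition thus left out 415 cells beside 646 members.

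**Figure D1:**
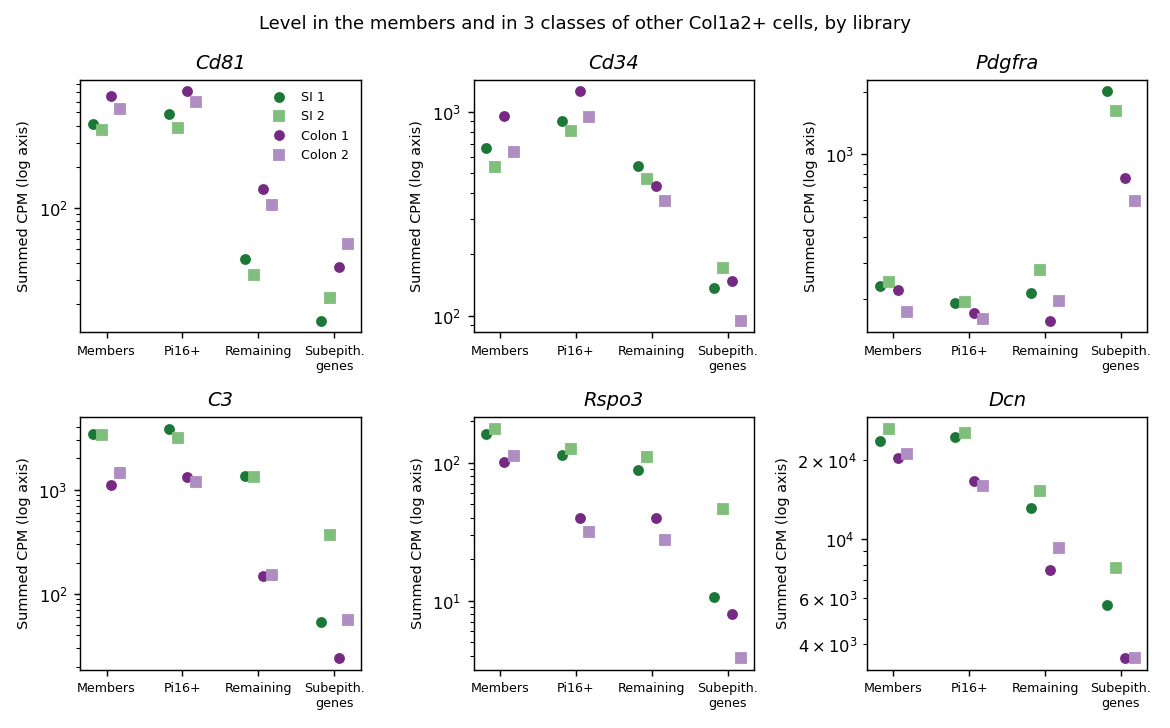
Summed level (CPM, log axis) of 6 genes in the members, the Pi16+ cells, the remaining Col1a2+ cells and the cells with at least 2 subepithelial genes, with 1 point per library (green, small intestine; purple, colon; circles, replicate 1; squares, replicate 2). Cd81 lies between 375 and 658 CPM in the members, overlaps the Pi16+ cells and is lower in both other classes, while Rspo3 in the colon is higher in the members (101 and 111 CPM) than in the Pi16+ cells (39.8 and 31.7 CPM).

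Most markers of cell types other than fibroblasts were low in the members. The summed level of 6 fibroblast genes was 44550, 55360, 34110 and 37420 CPM in the members. Endothelial markers (6 genes) summed to between 0 and 12.5 CPM, all 6 at 0 in the first colonic library, and lymphatic, glial, immune, epithelial, mesothelial and cycling markers to at most 8.82 CPM in any library. Smooth muscle genes summed to 77.6, 146, 258 and 310 CPM in the members, against 4452, 1268, 7877 and 2899 CPM in the others. Genes of interstitial cells of Cajal summed to between 11.1 and 17.7 CPM in the members. Of the fibroblast subsets, the PDGFRa-high list summed to 322, 358, 451 and 339 CPM in the members and 1024, 684, 1637 and 1084 CPM in the others, and the Fgfr2+ list to 1737, 1343, 1007 and 431 CPM against 5958, 5515, 5607 and 3532 CPM. Pericyte markers summed to 691, 590, 93.3 and 109 CPM, nearly all of it Rgs5 in the small intestine, while the defining pericyte gene Notch3 was at 0.446, 0.838, 0 and 2.26 CPM. The lymphoid stroma list, of which 3 genes were found, summed to 361, 285, 74.4 and 21.8 CPM, nearly all of it Cxcl13, with Bst1, the gene of the BP3 antigen, at 0 to 0.446 CPM. Plasma cell genes reached 1358 CPM in the second small intestinal library and 44.1, 6.30 and 7.90 CPM in the other 3. There, 2 of the 2031 members held 9512 of the 9721 plasma cell UMIs, and neither was called a doublet.

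Called doublets made up 1.67%, 9.85%, 0% and 2.94% of the members and 0.362%, 4.53%, 1.4998% and 3.67% of the other Col1a2+ cells. Across libraries, 67 barcodes passed the filter in more than 1 library, 57 of them in the second small intestinal and the second colonic library. Of the members, 13 carried a barcode that also occurred in another library, and no barcode was a member in both.

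As the rule counted them, the members were a larger share of the stroma in the small intestine than in the colon. They made up 17.8% (95% Clopper-Pearson interval 15.8 to 19.9) and 13.4% (12.9 to 14.0) of the members and other Col1a2+ cells in the small intestine, and 4.04% (3.25 to 4.96) and 5.17% (4.79 to 5.57) in the colon. The intervals of the 2 intestines did not overlap, but they cover counting error only, and 2 against 2 libraries cannot give an exact two-sided permutation p below 0.3333. Because detection of at least 3 genes grows with depth, each cell was also thinned to 2000 UMIs, which gave 11.6%, 10.6%, 2.23% and 3.57%, leaving out 152, 3391, 95 and 1407 shallower cells. Thinned to 1000 UMIs, the shares were 6.99%, 4.38%, 1.76% and 1.91%. The sort also fixes the denominator, which holds smooth muscle cells and pericytes with a Col1a2 UMI: smooth muscle genes summed to 4452, 1268, 7877 and 2899 CPM in the other cells. The rule itself acted unequally in the 2 intestines. Cpz, 1 of its 5 genes, was found in 46.4%, 35.7%, 13.8% and 8.36% of the members. The Pi16 condition alone removed 80, 259, 46 and 415 cells, beside 239, 2031, 87 and 646 members. The part of either in the difference of shares was not tested.

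**Figure D2:**
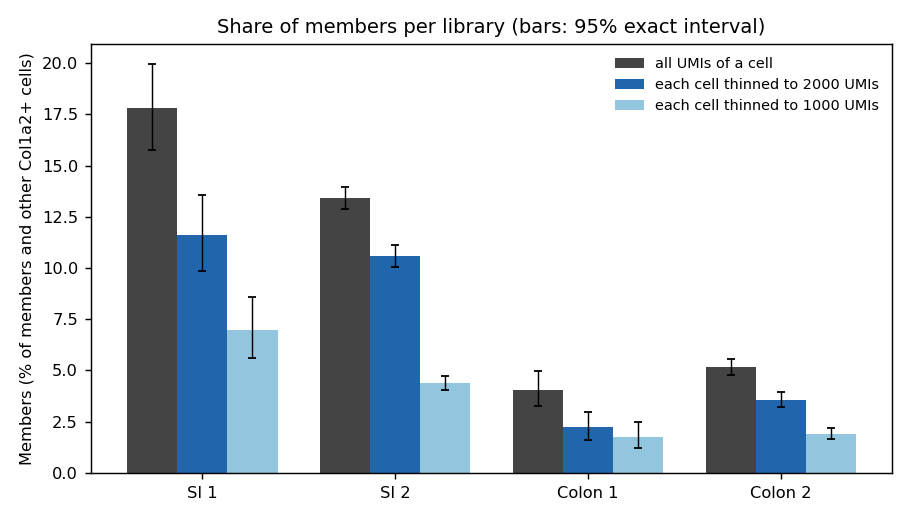
Members as a percent of members and other Col1a2+ cells in each library, with all UMIs of a cell and after thinning each cell to 2000 or 1000 UMIs; error bars are 95% Clopper-Pearson intervals. Both small intestinal libraries (17.8% and 13.4% with all UMIs) lie above both colonic libraries (4.04% and 5.17%) at each depth.

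The members were graded and not uniform in the rule genes detected. Exactly 3 of the 5 genes were found in 41.4%, 62.4%, 54.0% and 70.6% of them, and all 5 in 60, 148, 4 and 18 cells. Both Ackr4 and Grem1 were detected in 74.9%, 53.8%, 54.0% and 37.6% of the members, Grem1 without Ackr4 in 20.1%, 41.0%, 36.8% and 47.2%, and Ackr4 without Grem1 in 4.60%, 4.63%, 8.05% and 14.4%. Neither gene was detected in 1, 12, 1 and 5 members. Median depth was 9851, 3280, 10527 and 4361 UMIs in members with both genes and 8606, 3251, 7461.5 and 3781 UMIs in those with Grem1 only. Detection depends on depth, and the part of missed UMIs in these shares was not tested. Cd81 was higher in members with both genes (465, 399, 749 and 615 CPM) than in those with Grem1 only (205, 338, 401 and 446 CPM) in each of the 4 libraries.

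Cd81 also followed the number of detected rule genes across the threshold. Just outside it, in the 237, 2216, 253 and 1290 cells without Pi16 that held exactly 2 of the 5 genes, Cd81 stood at 40.2, 124, 216 and 218 CPM. Just inside it, with exactly 3, it stood at 148, 319, 529 and 492 CPM, and with 4 at 459, 460, 771 and 610 CPM. Igfbp5, which marks another PDGFRa-low fibroblast subset, went the other way. It stood at 563, 495, 387 and 375 CPM with 2 genes, at 262, 220, 327 and 93.5 CPM with 3, and at 78.8, 92.9, 25.8 and 29.7 CPM with 4. Cells with 3 genes therefore held intermediate levels of both markers. Cd34 had no direction common to the 4 libraries. With 2, 3 and 4 genes it stood at 682, 747 and 614 CPM and at 573, 539 and 548 CPM in the small intestinal libraries, and at 716, 945 and 971 CPM and at 562, 625 and 680 CPM in the colonic ones.

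Outside the 10 rule genes, 20 of 11153 genes were higher in the members than in the other Col1a2+ cells of the same library by more than 1 on the log2 scale in 4 of 4 libraries, and 81 were lower. These are 0.179% and 0.726% of the genes considered, with a pseudocount of 10 CPM and at least 20 UMIs in the higher class of each library. The cells were chosen by expression, so these differences describe the members and carry no test, and each is given below as a mean log2 difference with its SD over 4 libraries. With a pseudocount of 1 CPM the counts were 33 and 235, and without the second small intestinal library 129 genes were lower.

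Ordered by the library with the smallest difference, Cd81 (2.22, SD 0.44) and Pcolce2 headed the higher genes. Pcolce2, which encodes an enhancer of procollagen C-proteinase, stood at 345, 369, 421 and 563 CPM in the members and at 104, 104, 33.6 and 109 CPM in the others (2.23, SD 0.77). At least 1 Pcolce2 UMI was found in 77.0%, 64.5%, 70.1% and 73.2% of the members and 22.9%, 16.4%, 5.81% and 14.9% of the others. Although the sort excluded CD31+ cells, 354, 1, 248 and 24 endothelial cells without member status were found by their markers. In those of the first small intestinal and the first colonic library, which should lack Pcolce2, the share was 1.13% and 0.403% (medians of 4543.5 and 5287 UMIs). The shares in the other Col1a2+ cells were thus above this background.

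Further matrix genes were among the 20. Aebp1, which encodes a collagen-binding matrix protein, stood at 1286, 1438, 949 and 1020 CPM against 473, 617, 275 and 412 CPM (1.42, SD 0.24). Col14a1 and Col8a1, chains of minor collagens, differed by 1.49 (SD 0.49) and 1.49 (SD 0.38), and among 23 collagen chains considered they were the 2 that were higher, while Col6a4 was the 1 that was lower. The large fibrillar collagens Col1a1, Col1a2 and Col3a1 did not reach the threshold in all libraries, with mean log2 differences of 0.75, 0.60 and 0.47. The median over the collagen list was -0.38, against -0.13 over all genes considered. Among 29 secreted proteases and inhibitors, Pcolce2, Serpinf1 (1.46, SD 0.52), the gene of the antiangiogenic factor PEDF, and Cpxm1 (1.36, SD 0.23) were higher. The metalloproteinase genes Adamdec1 (-2.29, SD 0.55) and Mmp10 (-2.37, SD 1.12) and Cpxm2 (-1.79, SD 0.89) were lower. None of 8 small leucine-rich proteoglycans met the rule, although Dcn, decorin, stood at 23660, 26350, 20390 and 21100 CPM in the members and 13160, 15240, 6143 and 8512 CPM in the others.

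Genes of signalling formed a further group. Prlr, the prolactin receptor, stood at 47.2, 80.3, 46.6 and 122 CPM against 8.72, 18.6, 6.33 and 25.2 CPM (1.74, SD 0.13). Gpc3, a glypican that binds growth factors at the cell surface, differed by 1.58 (SD 0.20). Foxp2, the 1 transcription factor of 26 regional factors that was higher, differed by 1.53 (SD 0.29), while Nkx2-3, Foxf2 and Tbx2 of the same list were lower by means of 1.22 to 1.75. The neurotrophic genes Ntf3 (14.3, 13.6, 12.6 and 12.8 CPM against 59.2, 54.0, 66.0 and 39.8 CPM) and Gdnf were lower. Figf, the gene of the lymphatic growth factor VEGF-D, had the smallest spread of the 20, with 59.3, 37.7, 58.0 and 36.9 CPM against 20.8, 11.9, 19.0 and 12.8 CPM (1.14, SD 0.08). The guidance and adhesion genes Lsamp (1.47), Flrt2 (1.34) and Flrt3 (1.26), the junction gene Cgnl1 (1.27) and Lgi2 (1.28) were also among the 20.

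**Figure D3:**
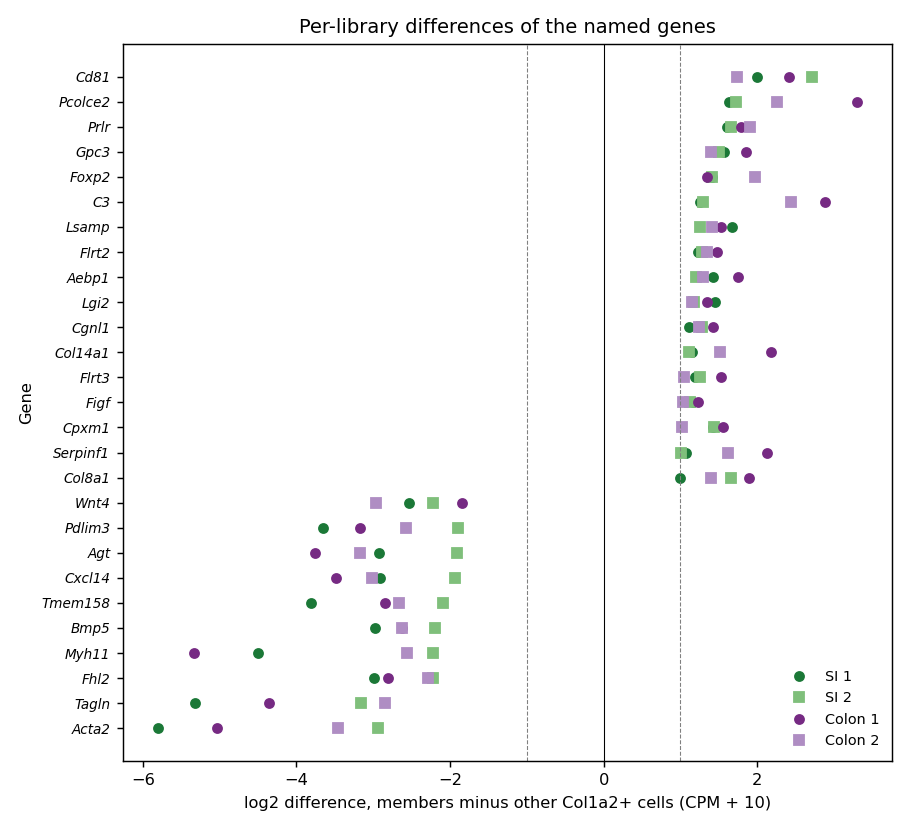
Difference of log2(CPM + 10) between the members and the other Col1a2+ cells for 17 of the 20 higher and the 10 named lower genes, with 1 point per library and dashed lines at -1 and 1. The points of Figf sit close together (SD 0.08), whereas for C3 the colonic points lie farther from 0 than the small intestinal ones.

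The lower genes named by the same rule were led by contractile genes. Acta2, smooth muscle actin, stood at 25.9, 61.6, 108 and 114 CPM in the members and 1991, 537, 3878 and 1353 CPM in the others (-4.31, SD 1.34), and Tagln, Myh11, Fhl2 and Pdlim3 differed by -3.92, -3.65, -2.58 and -2.82. Bmp5 stood at 8.47, 10.9, 44.1 and 27.8 CPM against 136, 85.7, 324 and 223 CPM, Cxcl14 at 12.5, 18.9, 16.4 and 14.3 CPM against 159, 100, 286 and 186 CPM, and Wnt4 at 0.446, 13.8, 31.5 and 27.8 CPM against 50.3, 101, 139 and 284 CPM. The rule itself keeps out cells with subepithelial genes, and the others hold smooth muscle cells, so part of this list is set by the choice of cells. Against the remaining Col1a2+ cells alone, without the Pi16+ and subepithelial classes, 25 genes were higher (0.237%) and 49 lower (0.465% of 10533).

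Against the Pi16+ cells, few genes differed. By the same thresholds 1 of 5161 genes was higher in the members (0.0194%) and 7 were lower (0.136%), a comparison added after the values were seen. The higher gene was Apoe, apolipoprotein E, at 1360, 1669, 371 and 448 CPM in the members and 639, 615, 144 and 115 CPM in the Pi16+ cells. The lower genes were Npy1r (4.46, 6.57, 3.78 and 9.03 CPM against 36.4, 67.6, 44.6 and 75.6 CPM), Tmem100, Scara5, Timp3, Ly6c1, Mfap5 and Cd55, with mean differences from -2.02 to -1.22. Ly6c1 shares sequence with near-identical copies, so its counts are uncertain. The members and the Pi16+ cells shared high C3 (members 3435, 3328, 1107 and 1434 CPM, Pi16+ cells 3866, 3135, 1333 and 1183 CPM) and Cd81. Pcolce2 (489, 505, 628 and 587 CPM), Col8a1 (235, 262, 355 and 375 CPM) and Col14a1 (1544, 2304, 1181 and 1968 CPM) stood higher in the Pi16+ cells than in the members in every library. The minimum of 20 UMIs was harder to reach here, since the first colonic library held only 87 members and 100 Pi16+ cells. The members and the Pi16+ cells were also split by detection of Pi16, which depends on depth. With each cell thinned to 2000 UMIs, a Pi16 UMI was left in 51.3%, 75.5%, 63.5% and 76.7% of the Pi16+ cells deep enough. Members can thus include cells whose Pi16 was missed, and their part in the small number of differing genes was not tested.

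Against the cells with at least 2 subepithelial genes, 141 of 7959 genes were higher (1.77%) and 218 were lower (2.74%), also a comparison added after the values were seen. C3 differed by 4.60, Pcolce2 by 4.40, Cd81 by 3.64 and Fmo2 by 3.24 on the log2 scale. Il6 stood at 495, 384, 164 and 249 CPM in the members and at 31.3, 61.6, 16.9 and 27.4 CPM in those cells. Acta2 (-5.17), Emid1 (-4.73), Ednrb (-4.69) and Bmp5 (-4.01) were far lower in the members.

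Among the factors that act on the crypt, R-spondins stood higher in the members without meeting the rule in all 4 libraries. Rspo3 was the most abundant, at 162, 176, 101 and 111 CPM in the members and 76.4, 106, 25.1 and 21.4 CPM in the others. Rspo2 stood at 48.1, 46.0, 8.82 and 17.7 CPM against 11.8, 16.2, 1.68 and 1.26 CPM, and Rspo1 at 17.8, 13.1, 18.9 and 7.90 CPM against 6.81, 4.82, 6.43 and 4.38 CPM. All 3 were higher in the members in every library, and Rspo4 had no UMI in members or others. The median over the 3 was 1.12. With each cell thinned to 2000 UMIs, an Rspo3 UMI was expected in 27.3%, 29.5%, 17.1% and 17.8% of the members and 12.8%, 17.8%, 4.64% and 3.68% of the others.

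Of 10 BMP antagonists considered outside the rule, 0 were higher and 0 lower, and their median was -0.04. Fstl1 stood at 397, 457, 587 and 744 CPM in the members, level with the others, and Nbl1 at 577, 435, 450 and 307 CPM, below the others at 1629, 787, 1290 and 699 CPM. High expression in the members was thus seen for Grem1, on which they were chosen, and not across the list. Of 8 BMP and GDF ligands, Bmp5 and Bmp3 were lower. Bmp4, the most abundant, stood at 258, 312, 504 and 418 CPM in the members and 399, 501, 779 and 701 CPM in the others. Gdf6 ran the other way at 51.2, 37.7, 23.9 and 11.7 CPM against 7.05, 5.602, 0.561 and 0.805 CPM. Of 6 WNT ligands, only Wnt4 was counted, as lower. Wnt2b stood at 82.0, 25.01, 97.1 and 16.5 CPM in the members, higher in the first library of each intestine than in the second, and Wnt5a at 20.1, 37.0, 13.9 and 26.3 CPM. Of the 12 growth factor genes of the EGF and FGF families, Ereg was lower (101.6, 153, 94.5 and 59.8 CPM against 215, 409, 279 and 364 CPM), and of the 6 secreted WNT inhibitors none met the rule.

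In the immune and vascular groups, C3, the central complement component, was the 1 of 14 complement genes that was higher in the members, at 3435, 3328, 1107 and 1434 CPM against 1428, 1346, 142 and 255 CPM (1.97, SD 0.82). A C3 UMI was found in 100%, 97.3%, 72.4% and 86.2% of the members, in 62.3%, 63.9%, 18.3% and 20.05% of the others, and in 3.11% and 1.21% of the endothelial cells of the first small intestinal and first colonic library. Il6 (495, 384, 164 and 249 CPM) differed by 1.13 (SD 0.28) and Ccl7 by 1.04 (SD 0.26), which was not beyond 1 in all libraries. Of 15 chemokines 0 were higher and Cxcl14 was lower, and of 11 stromal cytokines 0 were higher and Il34 was lower (-1.87, SD 0.61). Figf aside, which the files name by an older symbol than the list does, 0 of 13 vascular and lymphatic growth factors met the rule. Adm, adrenomedullin, stood at 162, 88.3, 159 and 73.7 CPM against 39.1, 29.7, 56.0 and 40.0 CPM. Of 13 retinoid genes, Aldh1a1, Aldh1a2, Aldh1a3 and Rdh10, which encode enzymes that make retinoic acid or its precursor, were lower by means of 1.29 to 1.66. In the lists of 2 atypical chemokine receptors, 29 elastic fibre and matricellular genes, 9 IGF genes, 16 adventitial genes, 9 Hox genes, 24 interferon genes, 15 MHC genes and 18 immediate early genes, 0 were higher and 0 lower by the rule, and of 11 sorting antigens Cd81 was the 1 that was higher.

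Within the members, 17 of 10232 genes (0.166%) differed between the colon and the small intestine by edgeR's quasi-likelihood test on the summed counts (Benjamini-Hochberg adjusted p under 0.05 and absolute log2 fold change above 1.5). Of these, 10 (0.0977%) were higher in the colon and 7 (0.0684%) in the small intestine, and the median log2 fold change of all genes tested was -0.01. The adjusted p-values of the 17 lay between 0.0395 and 0.0488, just under the threshold. With the RLE scaling 10 were called, all among the 17, and 7 genes (Stmn2, Cyp7b1, Lgals3, Thy1, Sfrp4, Tnfrsf11b and C4b) lost their call at an adjusted p of 0.05003. DESeq2 called 123 genes, which included all 17, and leaving out the first small intestinal, the second small intestinal or the first colonic library gave 39, 54 and 70 calls. With the library number as a replicate block, which goes with the Cell Ranger version, 280 genes were called, again including all 17. At an unadjusted p under 0.05 there were 730 genes (7.13%). Counts were also simulated with 1 common spread for all genes, estimated from the members, and with no link between same-numbered libraries. Only the more abundant genes were changed. Of these, 71 of 100 changed by 2 on the log2 scale and 96 of 100 changed by 3 were called, and 9 unchanged genes were called beside them. The rates need not hold for the real libraries, where spread can differ by gene and same-numbered libraries deviated together.

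Positional genes were among the clearest. Hoxa10 (chr6:52231197-52240854), a posterior homeobox gene, had no UMI in the members of either small intestinal library and stood at 45.4 and 32.3 CPM in the colon, which is at least 122-fold higher against a floor of 3 counts over both small intestinal libraries (edgeR adjusted p = 0.0395). Pitx1, a homeobox gene of the hindlimb and hindgut, rose from 7.58 and 5.87 CPM to 89.5 and 73.7 CPM (log2 fold change 3.53, SE 0.32, edgeR adjusted p = 0.0395). Hox genes as a list went both ways: of 20 tested, 7 were higher and 12 lower in both colonic libraries than in both small intestinal ones, against 21.4% and 13.2% of all genes tested (34.6% together). Hoxa11 (17.6 and 11.3 CPM) and Hoxd9 (12.6 and 16.2 CPM) had UMIs only in the colonic members, and Hoxc8 stood at 33.0, 32.8, 0 and 1.13 CPM. With the replicate block 6 Hox genes were called as higher in the colon and 7 in the small intestine, against 99 and 181 of all 10238 genes tested. The other Col1a2+ cells showed the same pattern at Hoxa10, with 0, 0, 76.3 and 54.4 CPM.

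Of 11 retinoid genes tested, 5 were higher in both small intestinal libraries and 2 in both colonic ones, against 13.2% and 21.4% of all genes tested. Lrat (chr3:82892579-82903973), the enzyme that esterifies retinol for storage, stood at 161 and 220 CPM in the small intestine and at 1.26 and 0 CPM in the colon, with 1934 UMIs against 1, a ratio of 710 (95% counting interval 127 to 28060, edgeR adjusted p = 0.0395). It was the 1 retinoid gene that was called. With the replicate block 3 of the 11 were, against 280 of all 10238 genes tested. Aldh1a3 stood at 71.8, 70.0, 17.7 and 13.2 CPM without passing (edgeR adjusted p = 0.0644). In the other cells Lrat stood at 257, 321, 1.48 and 0.475 CPM, and the class by tissue term described below did not call it.

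The other genes higher in the colonic members were Stmn2, Thy1, Cdh13, Fez1, Sfrp4, Lgals3, Ctgf and Tnfrsf11b. In the other Col1a2+ cells, each of them was also higher in both colonic libraries than in both small intestinal ones. Of the genes called between the intestines in the members, only Saa3 and Lgals3 were also called by the class by tissue term described below. Thy1 (chr9:44043384-44048579), the gene of CD90, rose from 1.34 and 1.82 CPM to 208 and 68.8 CPM (6.23, SE 0.67, edgeR adjusted p = 0.0488). Stmn2, a microtubule regulator, was at 0.446, 0, 49.2 and 27.8 CPM, which is 1 UMI against 113 and a ratio of 308, with a counting interval from 54.1 to 12260 at the 95% level. Both Stmn2 and Thy1 belong to a list of 5 markers of another colonic fibroblast subset, CD90+ FB. The sum of this list in the members was 330, 443, 618 and 318 CPM, overlapping between the intestines, and its other 3 genes, Igfbp5, Pparg and Col15a1, were not called. The part of such cells in the result was not tested. Cdh13, an atypical cadherin, and Fez1 rose by 4.54 (SE 0.37) and 4.08 (SE 0.37), Sfrp4, a secreted WNT inhibitor, by 3.48 (SE 0.37), and Lgals3, galectin 3, by 3.24 (SE 0.33). Ctgf, a matricellular growth factor, rose from 24.1 and 23.3 CPM to 199 and 174 CPM, and Tnfrsf11b, the decoy receptor osteoprotegerin, from 18.3 and 23.2 CPM to 144 and 130 CPM.

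Of the genes higher in the small intestinal members, 3 belong to immune defence. Saa3, an acute phase protein, stood at 30.3, 35.6, 0 and 0.376 CPM (323 UMIs against 1, ratio 119, 95% counting interval 21.1 to 4699). H2-Q7, a class Ib MHC gene, fell from 101 and 99.9 CPM to 5.04 and 3.39 CPM in the colon (-4.75, SE 0.35, edgeR adjusted p = 0.0395), and C4b, complement component 4, from 1501 and 1378 CPM to 155 and 181 CPM (-3.18, SE 0.33, edgeR adjusted p = 0.0488). H2-Q7 and C4b have near-identical copies, so their counts are uncertain. Rgs5, a regulator of G protein signalling used as a pericyte marker, fell from 630 and 489 CPM to 16.4 and 22.6 CPM (-4.89, SE 0.40). Of the other pericyte genes, which were not called, Kcnj8 stood at 3.12, 4.61, 13.9 and 4.51 CPM and Pdgfrb at 48.1, 73.8, 42.9 and 51.5 CPM in the members. Shisa3 and Cyp7b1, an oxysterol hydroxylase, fell by 3.39 (SE 0.31) and 3.37 (SE 0.36).

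**Figure D4:**
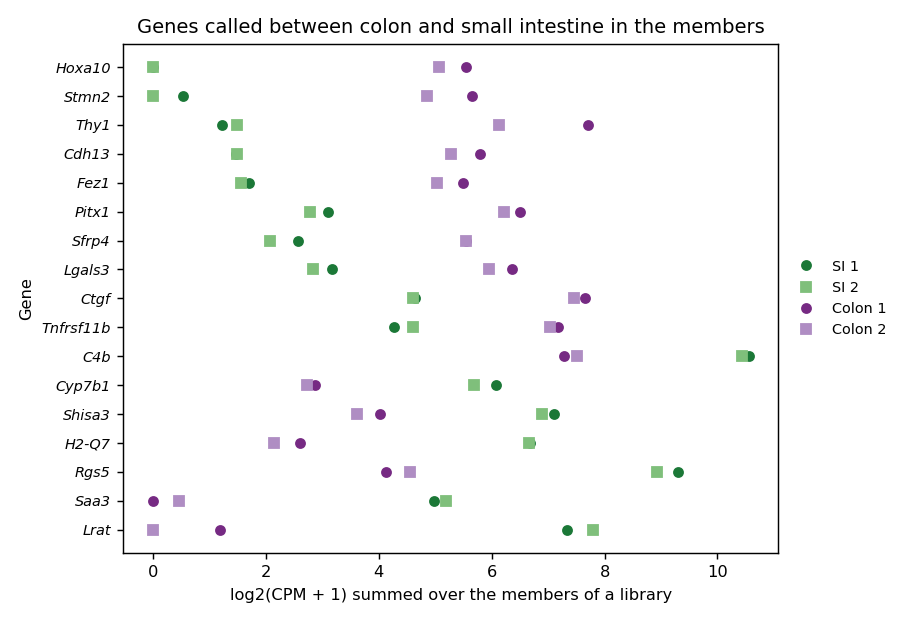
Summed level in the members, as log2(CPM + 1), of the 17 genes called between colon and small intestine, with 1 point per library (circles, replicate 1; squares, replicate 2). The groups do not overlap for any of them, from Hoxa10 with 0 CPM in both small intestinal libraries to Lrat with 1.26 and 0 CPM in the colon.

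Some lists leaned one way with few or no calls. Of 15 MHC and antigen presentation genes tested, 13 were higher in both small intestinal libraries, with a median log2 fold change of -2.005 and H2-Q7 the 1 call. B2m, the MHC class I light chain, stood at 2297, 1609, 529 and 509 CPM and H2-K1 at 2474, 1889, 489 and 500 CPM, neither of them called. Of 23 interferon response genes, 19 were higher in both small intestinal libraries (median -1.501) and 0 were called. Of 15 complement genes, 8 were higher in both small intestinal libraries (median -0.67) and C4b was called. Over all genes 13.2% were higher in both small intestinal libraries. In the other cells B2m stood at 2351, 1858, 509 and 510 CPM, near the members. With the replicate block 9 MHC, 8 interferon and 5 complement genes were called as higher in the small intestine, and 1 complement gene as higher in the colon, so the few calls in these lists depend on the fit. Among all 10238 genes tested, the block called 181 as higher in the small intestine and 99 as higher in the colon. Of the 3 R-spondins, Rspo3 and Rspo2 were higher in both small intestinal libraries and 0 were called, while with the replicate block Rspo2 was. None of the 23 collagen chains, 26 elastic fibre and matricellular genes, 9 small leucine-rich proteoglycans, 28 secreted proteases and inhibitors, 15 chemokines, 11 stromal cytokines, 9 BMP antagonists, 7 BMP and GDF ligands, 7 WNT ligands, 11 EGF and FGF ligands, 14 vascular factors and 14 neurotrophic factors tested was called, and with the replicate block 0 to 4 genes of each of these lists were.

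Immediate early genes leaned the other way, with 11 of 18 higher in both colonic libraries, against 21.4% of all genes tested, 0 called and a median of 0.74. Fos stood at 5522, 7040, 14610 and 14660 CPM and Atf3 at 1200, 1283, 3963 and 4202 CPM. The other cells shared this for Fos, with 4102, 6502, 10440 and 11050 CPM. These genes are known to respond quickly to the handling of cells, and their part in the differences between the intestines was not tested. The adventitial list leaned to the colon as well, with 8 of 15 genes higher in both colonic libraries, against the same 21.4%, 0 called and a median of 0.34. The adventitial gene Anxa3 stood at 5.35, 8.66, 64.3 and 86.5 CPM (edgeR adjusted p = 0.0518), and Igfbp6 of the IGF system at 244, 278, 1070 and 1357 CPM (edgeR adjusted p = 0.10). With the replicate block, 1 immediate early gene (Atf3) and 2 adventitial genes (Anxa3 and Has1) were called, against 280 of all 10238 genes tested. The summed adventitial markers in the members were 378, 473, 915 and 1050 CPM with Pi16 at 0 by rule, against 1459, 1858, 3174 and 3163 CPM in the Pi16+ cells, and their part in the result was not tested.

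The difference between the intestines was itself not the same in the members as in the other Col1a2+ cells for 226 of 12827 genes (1.76%), by an edgeR test of class by tissue with the library as a block (adjusted p under 0.05 and absolute difference of log2 fold changes above 1). For 104 (0.811%) the members were relatively higher in the colon and for 122 (0.951%) relatively lower. The other cells are a mixture whose makeup differed between the intestines, for example in its share of cells with subepithelial genes. With only the remaining class as reference 232 genes were called, of which 160 were among the 226.

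The largest positive terms were taken among genes with at least 30 UMIs in both member libraries of the higher intestine. For these, the members kept a level in the colon that the pooled other cells did not. The colonic Pi16+ cells among those others held Angptl1 at 89.3 and 48.4 CPM and Ccl11 at 1137.5 and 420 CPM, nearer the members. They held Kcnk2 at 83.2 and 66.6 CPM, Hmcn2 at 292 and 183 CPM and Ramp1 at 24.1 and 31.8 CPM, below the members. A class by tissue term against the Pi16+ cells alone was not tested. Angptl1 (chr1:156838562-156861078), an angiopoietin-like secreted protein, stood at 202, 244, 120 and 138 CPM in the members and 170, 155, 6.17 and 11.01 CPM in the others (3.37, SE 0.19, edgeR adjusted p = 1.18e-07). With only the remaining class as reference its term was 4.58 (SE 0.53) with an adjusted p of 0.070. Kcnk2, a potassium channel, stood at 156, 127, 198 and 124 CPM against 272, 252, 68.9 and 50.8 CPM. Hmcn2, hemicentin 2, stood at 430, 306, 512 and 343 CPM against 696, 487, 198 and 122 CPM. Ccl11, the eosinophil chemokine eotaxin, stood at 580, 294, 1118 and 532 CPM in the members and was below the others in the small intestine (1434 and 933 CPM) but above them in the colon (745 and 302 CPM). Ramp1, a subunit of the CGRP receptor, stood at 35.2, 29.5, 40.3 and 46.7 CPM against 109, 56.3, 26.2 and 24.0 CPM.

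Several positive terms lay in the gene lists. Of 29 Hox genes, 6 had a positive and 0 a negative term: Hoxb2, Hoxb3, Hoxb4, Hoxb5, Hoxb7 and Hoxd8. The calls of Hoxb2, Hoxb4 and Hoxb5 held under all 12 alternatives described below, those of Hoxb3, Hoxb7 and Hoxd8 under 9, 7 and 7. Hoxb5 stood at 21.4, 19.3, 12.6 and 10.5 CPM in the members and 25.2, 19.0, 0.918 and 1.92 CPM in the others, and Hoxb4 at 86.5, 55.3, 44.1 and 33.5 CPM against 79.1, 74.5, 10.6 and 9.91 CPM. Both genes were thus near the level of the other cells in the small intestine and above it in the colon. Of 17 complement genes, 5 had a positive and 0 a negative term (C3, C7, Cfb, C1qtnf7 and Cd55, the decay-accelerating factor). The calls of C3 and C1qtnf7 held under all 12 alternatives, those of C7, Cfb and Cd55 under 6, 7 and 9. Of 3 R-spondins tested, Rspo3 (1.304, SE 0.18, edgeR adjusted p = 0.000643) and Rspo2 (1.73, SE 0.39, edgeR adjusted p = 0.026) had a positive term, so their lead over the other cells was larger in the colon. With only the remaining class as reference, the term of Rspo3 was 0.95 and Rspo2 had an adjusted p of 0.245. Without the second small intestinal or the second colonic library the adjusted p of Rspo2 was 0.227 and 0.815.

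**Figure D5:**
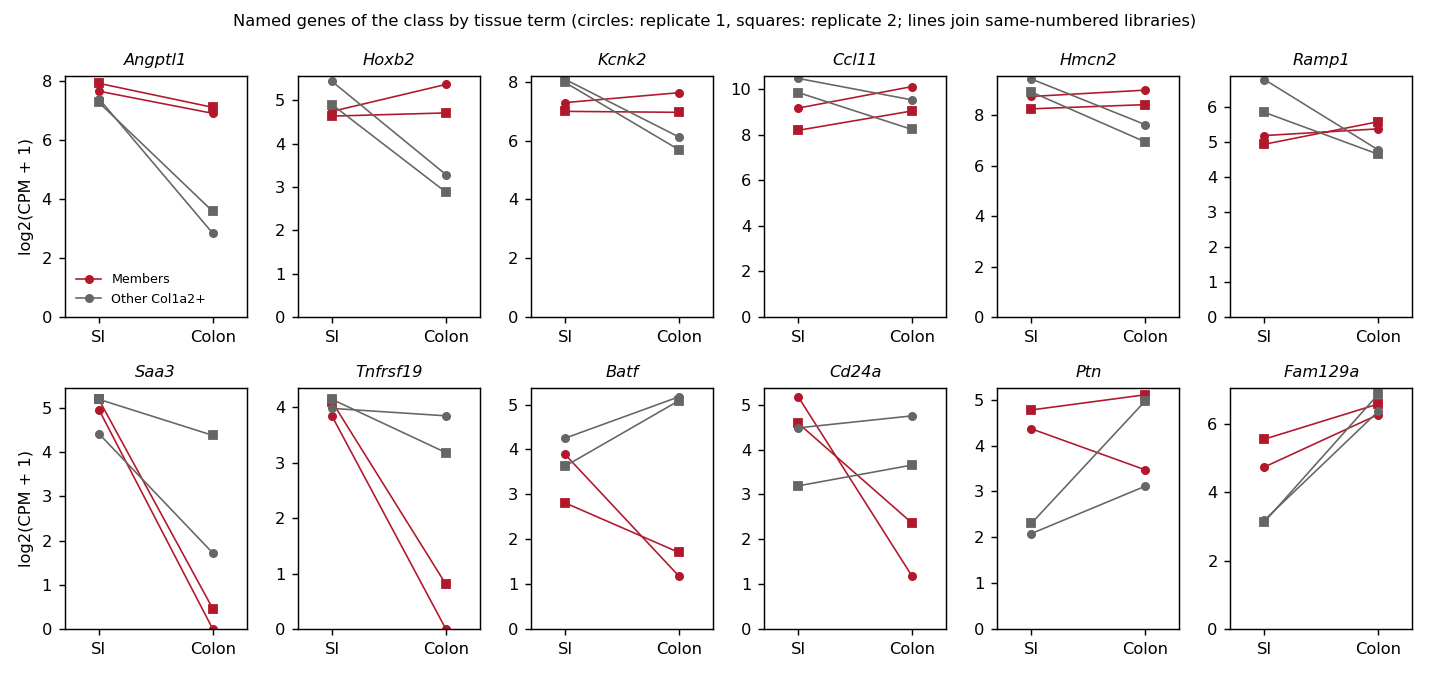
Summed level as log2(CPM + 1) in the members (red) and the other Col1a2+ cells (grey) of the small intestine and colon for the 12 named genes of the class by tissue test; circles are replicate 1, squares replicate 2, and lines join libraries that share a number. Angptl1 stays at 120 and 138 CPM in the colonic members and is at 6.17 and 11.01 CPM in the other colonic cells, while Tnfrsf19 is at 0 and 0.752 CPM in the colonic members.

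For several negative terms the colonic members held little of a gene that the pooled other colonic cells kept. The colonic Pi16+ cells among those others held little of these genes as well. They stood at 0 and 2.30 CPM for Tnfrsf19, 0 and 5.08 CPM for Cd24a, 3.62 and 3.44 CPM for Batf, and 0 and 0.164 CPM for Saa3. Tnfrsf19, a receptor also known as TROY, stood at 13.4, 16.2, 0 and 0.752 CPM in the members and 14.8, 16.7, 13.4 and 8.10 CPM in the others. Cd24a stood at 35.2, 23.1, 1.26 and 4.14 CPM against 21.4, 8.13, 26.0 and 11.6 CPM, and Batf at 13.8, 6.01, 1.26 and 2.26 CPM against 18.1, 11.4, 35.1 and 33.0 CPM. Saa3, called between the intestines in the members, stood at 20.4, 35.7, 2.29 and 19.9 CPM in the others (-5.94, SE 0.70, edgeR adjusted p = 9.45e-05), and without the second colonic library the term was -8.11 (SE 4.16) with an adjusted p of 0.539. Fam129a and Ptn were higher in the members than in the others in the small intestine (Fam129a 25.9 and 46.2 CPM against 8.13 and 7.81 CPM) but not in the colon for Fam129a (76.9 and 95.6 CPM against 82.3 and 117 CPM). Ptn stood at 19.6, 26.4, 10.1 and 33.5 CPM against 3.23, 3.93, 7.65 and 30.4 CPM. In the Pi16+ cells Fam129a stood at 21.8, 40.2, 65.1 and 114 CPM, and Ptn at 5.46, 16.2, 3.62 and 42.5 CPM.

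Signals made by the other colonic cells gave further negative terms. Of 9 WNT ligands, Wnt5a (-1.99, SE 0.33, edgeR adjusted p = 0.0157) and Wnt5b (-1.85, SE 0.32, edgeR adjusted p = 0.00254) were called, with Wnt5a at 41.6, 41.0, 126 and 117 CPM in the others and no such step in the members. Wnt5b lost its call without the second small intestinal or the second colonic library (adjusted p 0.227 and 0.0894). Of 13 BMP antagonists, Fst, follistatin, stood at 6.69, 5.45, 2.52 and 19.9 CPM in the members and 3.23, 1.89, 59.1 and 69.1 CPM in the others, and lost its call without the second small intestinal library (-3.26, SE 0.91, adjusted p 0.199). Bmp2 stood at 161, 159, 182 and 176 CPM in the members and 134, 172, 470 and 362 CPM in the others (-1.29, SE 0.18, edgeR adjusted p = 0.000664). Against the remaining class alone the term of Bmp2 was 0.00091 with an adjusted p of 1, so it was called only with the Pi16+ and subepithelial cells among the others.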

How the data were processed

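Single-cell RNA-seq was available for 2 small intestinal and 2 colonic libraries. The authors made the libraries with Chromium 3′ v3 or 5′ kits and counted UMIs against mm10 with Cell Ranger 3.0.2, per the labels (3.0.2 or 3.1.0 per the file headers), so the deposited values are raw counts per gene and barcode with no normalization. Per the study's methods, debris and doublets were removed by inspecting gene counts, read counts and mitochondrial share. Which kit made which library is not given in the sources used here.

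Kept were cells of no fewer than 500 genes and 1000 UMIs whose mitochondrial share was no more than 10% (32216 of 34983 barcodes, 28692 gene rows). The members, gene lists and tests were chosen with earlier results of these data known. UMIs were summed per library and class. Colon was tested against small intestine in the members with edgeR 4.0.16 in R 4.3.3 (filterByExpr, TMM, robust quasi-likelihood fit, Benjamini-Hochberg over all genes tested), and class by tissue with the library as a block. The script was tested on simulated data. Labels tie no library to single animals, so p-values measure only the spread between pooled libraries, which may be technical. Shares have 95% Clopper-Pearson intervals, which cover counting error only. Expected shares at 2000 UMIs were computed by the hypergeometric distribution. Doublets were scored per library with scrublet in scanpy 1.11.5. Its automatic threshold called 1 cell of 15263 in the second small intestinal library, so the top 5% by score (796 cells) were used there, and called cells stayed in unless stated. Endothelial cells were those with at least 3 of 6 endothelial markers. Genes were matched to GENCODE vM21 for coordinates (28416 of 28692 identifiers).

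Named genes were the 25 highest and 10 lowest by the least extreme of the per-library differences of members from others, the 12 largest in each direction between intestines that had 30 or more UMIs in both libraries of the intestine with the higher level, the 6 largest in each direction of the class by tissue term with the same minimum in the member libraries, and the most abundant or called members of 25 lists. Alternatives were RLE scaling, no low-count filter, DESeq2 1.42.0, the replicate number as a block, another pseudocount, other detection thresholds, thinning, doublets removed, other references, and each library left out. Removal of cells with at least 20 plasma cell UMIs was added after seeing the data. Some genes that met these rules are not reported here.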

Additional observations from a re-analysis of the deposited data

Results flagged for a closer look

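For 55 genes, the named genes of this comparison and the called members of the gene lists, the difference between the intestines in the members differed from the one in the other Col1a2+ cells, by edgeR's class by tissue term with an adjusted p under 0.05 and a size above 1 on the log2 scale. The call of 27 of them held under all 12 alternatives tried. A positive value means that the members were relatively higher in the colon than the other cells were.

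Positive terms that held under every alternative were those of Kcnk2 (2.25, SE 0.16), Hoxb2 (2.47, SE 0.24), Ccl11 (2.15, SE 0.16), Hmcn2 (2.07, SE 0.14), Ramp1 (2.03, SE 0.22), C3 (1.39, SE 0.15), Hoxb4 (2.01, SE 0.25), Hoxb5 (2.81, SE 0.39) and C1qtnf7 (1.56, SE 0.19), and of Limch1 (2.51), Il33 (1.99), Efna5 (1.56), Slit3 (1.39), Mfap4 (1.25) and Igf1 (1.21). Negative terms that did so were those of Tnfrsf19 (-3.94, SE 0.65), Batf (-3.37, SE 0.46), Cd24a (-3.32, SE 0.47), Ptn (-2.55, SE 0.25), Fam129a (-2.54, SE 0.22), Lgals3 (-2.02, SE 0.29) and Wnt5a (-1.99, SE 0.33), and of Col13a1 (-2.92), Fgf7 (-2.30), Postn (-2.21), Cpxm2 (-1.86) and Dhrs3 (-1.56). Lgals3, a called colon gene of the members, thus differed less between the intestines in the members than in the other cells.

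The call was lost under 1 of the 12 alternatives for Angptl1 (3.37), Saa3 (-5.94), Rspo3 (1.304), Fst (-3.54), Twsg1 (-1.10), Tbx3 (-2.72), Osr1 (-1.63) and Ifit3 (-1.15), and under 2 for Wnt5b (-1.85), Bmp2 (-1.29), Pdgfc (-3.39), Fbn2 (-2.22), Rbp4 (-1.08) and Thbs1 (1.14). It was lost under 3 for Rspo2 (1.73), Hoxb3 (2.11), Cd55 (1.25), Adamts5 (1.02), Htra1 (-1.03) and Rarg (-1.07), and under 4 for Anxa3 (1.85) and Angpt1 (-1.46). It was lost under 5 for Gdf6 (1.53), Inhba (-1.94), Hoxb7 (2.27), Hoxd8 (1.70) and Cfb (1.22), and under 6 for C7 (1.72).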

How the results depend on the processing

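The count of genes called between the intestines in the members (17) was 10 with RLE scaling, 281 without the low-count filter, 123 with DESeq2 and 280 with the replicate number as a block. Of these, 5, 101, 49 and 99 were higher in the colon, against 10, and without the filter, with DESeq2 and with the block 180, 74 and 181 were higher in the small intestine, against 7. All 17 were among the calls without the filter, with DESeq2 and with the block. Leaving out 1 library gave 23 to 70 calls (13 to 31 higher in the colon and 10 to 39 in the small intestine): 39 without the first and 54 without the second small intestinal library, and 70 without the first colonic library, of which 15, 15 and 17 were among the 17. The lone library of an arm was then taken to vary like the other group. Of the 17 genes, 7 (Hoxa10, Cdh13, Fez1, Lrat, Saa3, Rgs5 and H2-Q7) kept their call under every alternative. The cause of these shifts was not tested.

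The labels do not say that a replicate number marks a shared day or animal, but same-numbered libraries share the Cell Ranger version in the file headers and a similar depth. The deviations of same-numbered libraries from their group means correlated at 0.616 over 10238 genes. With the number as a replicate block the class by tissue calls were 360, against 226, with 215 negative, against 122. Leaving out 1 library gave 167 to 335 calls, 83 to 131 positive and 74 to 204 negative, with 204 negative without the first small intestinal library and 74 without the second. Of the 55 genes named for this term, the only one that turned was Bmp2 (0.00091 against the remaining class alone). Without cells holding at least 20 plasma cell UMIs, an alternative chosen after seeing the data, 21 genes were called between the intestines and 228 by class by tissue, which included 17 and 224 of those reported.

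Against the other cells, 20 genes were higher and 81 lower. A pseudocount of 1 CPM gave 33 and 235, the remaining class alone gave 49 lower, and leaving out 1 library gave 89 to 129 lower, with 129 without small intestine replicate 2. The shares of members (17.8%, 13.4%, 4.04% and 5.17%) were 11.6%, 10.6%, 2.23% and 3.57% after thinning to 2000 UMIs and 6.99%, 4.38%, 1.76% and 1.91% after thinning to 1000. They were 10.4%, 5.04%, 1.86% and 1.52% with at least 4 of the 5 genes and 35.4%, 28.0%, 15.9% and 15.5% with at least 2. Without called doublets the second small intestinal library gave 12.7%, and over all cells that passed the filter the first gave 13.0%. Both small intestinal shares stayed above both colonic shares in all of these. The median of the Hox list between the intestines (-0.95) was -3.03 without colon replicate 2 and -0.51 with at least 4 of the 5 genes.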

Other observations

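Some list members that the main text leaves out differed between the intestines in one class of cells more than in the other. Igf1 stood at 206, 254, 323 and 375 CPM in the members and 218, 269, 147 and 163 CPM in the other Col1a2+ cells. Il33, an alarmin cytokine, stood at 108, 108, 88.2 and 133 CPM in the members and 149, 154, 29.7 and 46.2 CPM in the others. The axon guidance genes Slit3 (285, 207, 284 and 229 CPM against 195, 156, 59.9 and 73.8 CPM) and Efna5 (63.7, 114, 30.3 and 68.5 CPM against 47.7, 95.4, 6.78 and 19.2 CPM) were also higher in the colonic members than in the other colonic cells. Postn, a matricellular protein, stood at 506, 631, 1769 and 794 CPM in the members and 254, 250, 3609 and 1544 CPM in the others, and Fgf7 at 59.3, 35.1, 69.3 and 41.4 CPM against 20.4, 14.1, 126 and 75.0 CPM. All 6 passed the class by tissue test, with terms of 1.21, 1.99, 1.39, 1.56, -2.21 and -2.30.

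Tcf21, a transcription factor of visceral mesenchyme, followed the library number and not the intestine in the members, at 799 and 1252 CPM in the first libraries and 214 and 183 CPM in the second ones. Wnt2b did so as well, and Serping1 stood at 5074 and 3692 CPM against 2501 and 1505 CPM.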
